A study of Mus musculus with 44 samples.

Results

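Chromosome 2 junctions that lay away from every AsiSI motif were taken from high-throughput genome-wide translocation sequencing (HTGTS), which starts at a primer beside 1 fixed break, the bait, and reads into whatever sequence that end was joined to, the prey. A junction was counted when its prey mapped to chromosome 2, more than 1 kb from the bait break at position 13271321 and more than 10 kb from each other AsiSI motif of the study's list, outside the window chr2:98660001-98670000. The rule used position only. It found 6448 junctions of 148726 deposited, 3802 in 26 libraries with an AsiSI bait and 2646 in 6 libraries with a Cas9 bait, and these are called motif-free prey below. Libraries held between 362 and 18428 junctions in all and between 3 and 629 motif-free prey. The window left out held 2933 junctions, 747 of them from Cas9 libraries.

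The AsiSI libraries came from AsiSI-MEFs, mouse embryonic fibroblasts with an inducible AsiSI enzyme, in which doxycycline (3 µg/ml, 24 h) switched the enzyme on and 4-hydroxytamoxifen (4OHT, 1 µg/ml, final 6 h) moved it to the nucleus. CK-666, an inhibitor of the actin nucleator ARP2/3, was given at 100 µM for 6 h in 6 libraries beside 6 with the vehicle DMSO. NU7441, an inhibitor of DNA-PKcs, a kinase of end joining, was given at 10 µM in 3 libraries beside 3 with DMSO. Wiskostatin, an inhibitor of the ARP2/3 activator N-WASP, was given at 3 µM in 2 libraries beside 2 with DMSO, and a plasmid for actin R62D-NLS, a nuclear actin that does not polymerize, was compared with empty vector in 2 libraries each. The Cas9 libraries came from wild-type MEFs transfected with a guide to the same motif and collected at 48 h, 3 with CK-666 and 3 with DMSO, and their CK-666 dose is not given in the sources used here. The labels give strain C57BL/6 and genotype WT for all of them and 4OHT for the Cas9 libraries too. Whether the AsiSI-MEFs are 1 clone is not stated. The study calls the replicates of its AsiSI experiments biological, and nothing in the labels says whether replicates were separate cultures. The p-values measure the spread between these libraries, part of which may be technical.

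A free DNA end is joined mostly to a second end that is near in the nucleus, and contact falls with distance along the chromosome, so joins within the same chromosome are a common product of a single break. Joins very near a break also arise from loss of sequence at the broken ends themselves. Both baits cut the same AsiSI motif at the start of Rsu1, a gene for a protein of cell adhesion complexes, and the plus-strand cuts lie 2 bp apart. The sequence is shown because every junction below begins in it. Capitals mark the AsiSI motif in the first line, from chr2:13271306-13271335, and the PAM that Cas9 needs beside its target in the second, from chr2:13271307-13271329, both on the plus strand of mm10.
bait motif: accctgtcccaGCGATCGCgcaggcgcaca
guide target with PAM: ccctgtcccagcgatcgcgcAGG

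All bait reads ran along the plus strand from the centromeric side, called left here, and began 43 bp before the break. The side and strand of the prey therefore give the form of each join. Prey to the right on the plus strand are the form of a deletion, and prey to the right on the minus strand that of an inversion. Prey to the left on the plus strand are the form of an excised circle or a tandem duplication. Prey to the left on the minus strand are also the form of an inversion, or join 2 copies of the same arm in opposite directions. Left plus and right minus prey both read from the junction toward the bait, and the other pair of forms reads away from it.

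Motif-free prey were densest beside the break and thinned out with distance for both baits. In the 11 AsiSI libraries with DMSO, pooled, the density was 10444 junctions per Mb of eligible sequence at 1 to 10 kb (95% Poisson interval 9005 to 12049), 189 at 10 to 100 kb and 118 at 0.1 to 1 Mb. It was 34.1 at 1 to 5 Mb, 16.6 at 5 to 20 Mb and 7.18 beyond 20 Mb. The nearest class was thus 1454 times as dense as the farthest, and the steepest step lay between the first class and the second. Without the libraries of run 3 (described below), which held all but 58 of these 188 nearest prey, it was 883 times as dense. The 3 Cas9 libraries with DMSO held 9833 junctions per Mb at 1 to 10 kb (interval 8438 to 11394), 239 at 10 to 100 kb and 48.3 at 0.1 to 1 Mb. Farther out their density was 9.52 at 1 to 5 Mb, 9.86 at 5 to 20 Mb and 3.89 beyond 20 Mb. Without telomeric prey (defined below) the Cas9 density was 7.99 at 5 to 20 Mb and 3.19 beyond 20 Mb. These intervals, like the Wilson intervals below, cover counting error of pooled junctions only and leave out the spread between libraries. In the 11 AsiSI libraries with DMSO the share of prey at 1 to 10 kb ran from 1.99% to 17.2%. Reads also carried no molecular identifiers.

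**Figure D1:**
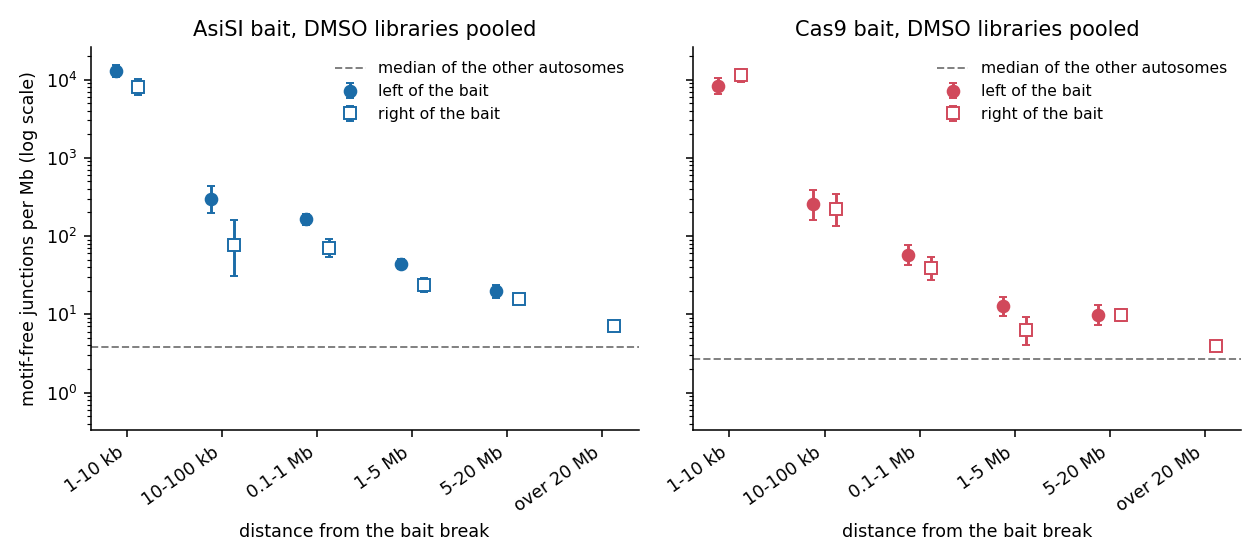
Motif-free junctions per Mb of eligible sequence (log scale) against distance from the bait break, for the 11 AsiSI and the 3 Cas9 libraries with DMSO, pooled. Filled circles are prey left of the bait, open squares prey right of it, bars are 95% Poisson intervals, and the dashed line is the median of the other 18 autosomes, 3.79 and 2.68 per Mb. Density falls from 10444 (AsiSI) and 9833 (Cas9) per Mb at 1 to 10 kb to 7.18 (AsiSI) and 3.89 (Cas9) beyond 20 Mb.

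Beyond 20 Mb the bait's own chromosome was set against the other autosomes. The density there was 1.89 times the median of the other 18 autosomes in the AsiSI libraries with DMSO and 1.45 times in the Cas9 libraries with DMSO. Over the 6 AsiSI libraries with DMSO that held at least 100 motif-free prey, the ratio was 2.08 ± 0.92 (SD, n = 6), from 1.21 to 3.86. The 6 Cas9 libraries, CK-666 included, lay between 1.24 and 1.62, and the 2 sets overlapped. The highest of the other autosomes held 15.3 per Mb in the AsiSI and 5.31 in the Cas9 libraries with DMSO, above chromosome 2 in both. The window left out by the rule lies beyond 20 Mb and held 2933 junctions over all libraries, beside 3301 motif-free prey there. No such window was left out on the other autosomes, so these ratios and this order hold only without it. With telomeric prey left out on chromosome 2 alone, the pooled Cas9 ratio with DMSO was 1.19, and both replicates 2 of Cas9 fell below 1, to 0.657 with DMSO and 0.460 with CK-666.

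The exclusion of 1 kb around the break cut through a dense region. From 0.5 to 1 kb, just inside the excluded zone, lay 425 AsiSI and 442 Cas9 junctions, and from 1 to 1.5 kb, just outside it, 109 and 151. At the other edge of the rule the numbers were small, with 15 AsiSI and 14 Cas9 junctions 9 to 10 kb from a motif and 22 and 6 at 10 to 11 kb. Of the AsiSI prey 1 Mb or more from the bait and outside telomeric repeats, 185 of 2954 (6.26%) lay under 1 kb from a site with 1 mismatch to the motif. The Cas9 libraries, whose cells held no AsiSI, had 87 of 1596 (5.45%) at such places.

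Within 10 kb most prey read away from the bait. Of 712 junctions at 1 to 10 kb over all libraries, 404 lay in the first kb of that range and 138 in the next, and only 227 (31.9%) read toward the bait. The 403 Cas9 prey were led by the deletion form, with 183 right plus (45.4%, 95% Wilson interval 40.6 to 50.3), 88 left minus, 79 left plus and 53 right minus. The 309 AsiSI prey were led by left minus, also a form of an inversion, with 133 (43.0%, interval 37.6 to 48.6). Right plus followed with 81, left plus with 52 and right minus with 43. Right minus was the rarest class in both sets. As left minus can be an inversion as well, inversions as a whole were not the rarest form.

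A few AsiSI libraries carried that left minus lead. Among the 11 with DMSO, 45 of the 88 left minus prey at 1 to 10 kb came from the NU7441 control replicate 3 and 22 from the wiskostatin control replicate 1, both sequenced in the same run (run 3). Outside that run, left minus prey numbered 21 of 58 (36.2%, interval 25.1 to 49.1) and right plus 16 (27.6%), so the order was kept but the intervals overlapped. In the Cas9 libraries with DMSO, right plus numbered 7, 39 and 35 and left minus 4, 20 and 16. The first of these libraries differed from the rest, with left plus its most frequent form at 12. The difference in form between the baits was seen in these counts first and was not tested.

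**Figure D2:**
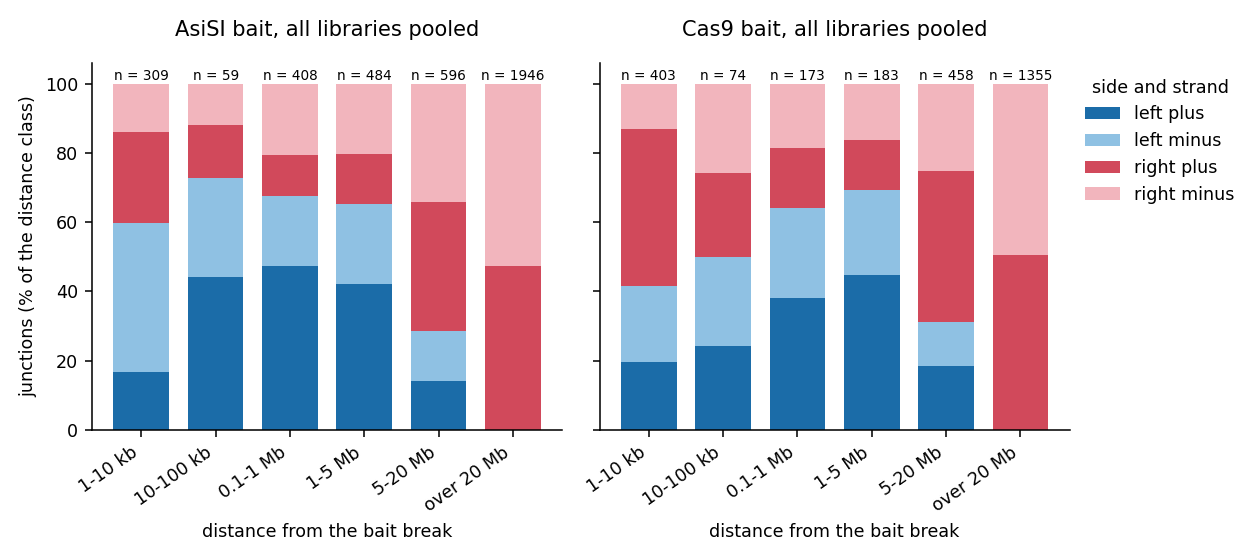
Share of each side and strand (%) among motif-free prey in 6 distance classes, with all 26 AsiSI libraries and all 6 Cas9 libraries pooled and the number of junctions over each bar. Left plus prey grow from 16.8% (AsiSI) and 19.6% (Cas9) at 1 to 10 kb to 42.1% and 44.8% at 1 to 5 Mb, and no left prey exist beyond 20 Mb because the chromosome ends there.

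Between 0.1 and 5 Mb the pattern turned round, and it did so for both baits. The AsiSI libraries held 892 motif-free prey in this range, of which 592 (66.4%, interval 63.2 to 69.4) lay left of the bait. The Cas9 libraries held 356, of which 238 (66.9%, interval 61.8 to 71.5) lay left. Eligible sequence was nearly equal on both sides, at 3.98 Mb left and 4.00 Mb right for 1 to 5 Mb. Left plus prey, the form of an excised circle or duplication, were the most frequent, with 397 AsiSI (44.5%) and 148 Cas9 junctions (41.6%). Right plus prey, the deletion form, were the least frequent, with 118 (13.2%) and 56 (15.7%).

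Taken by direction, 579 of the 892 AsiSI prey at 0.1 to 5 Mb (64.9%, interval 61.7 to 68.0) and 210 of the 356 Cas9 prey (59.0%, interval 53.8 to 64.0) read toward the bait. The shares at 1 to 10 kb were 30.7% and 32.8%. Beyond 5 Mb, without telomeric repeats, they were 51.7% (interval 49.7 to 53.6) and 49.3% (interval 46.7 to 51.9). With both sides pooled, prey thus mostly read away from the bait at the nearest distances and toward it at middle distances. At the farthest they read both ways in nearly equal numbers. Right of the bait at 0.1 to 5 Mb, Cas9 prey were nearly even, with 62 minus and 56 plus, while AsiSI prey numbered 182 and 118. In the Cas9 libraries with DMSO alone, 57.1% at this distance read toward the bait, with an interval of 49.4 to 64.4 that includes 50%. All 23 libraries with at least 10 prey at 0.1 to 5 Mb had more left than right, 17 with the AsiSI and 6 with the Cas9 bait. In 22 of them left plus was the most frequent form, the exception being the Cas9 DMSO replicate 2 with 11 left plus, 12 left minus and 13 right minus. Prey toward the bait outnumbered those away from it in 22 of the 23, and the NU7441 replicate 3 had 12 of 24. This pattern was chosen after its values were seen, so no test was made.

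**Figure D3:**
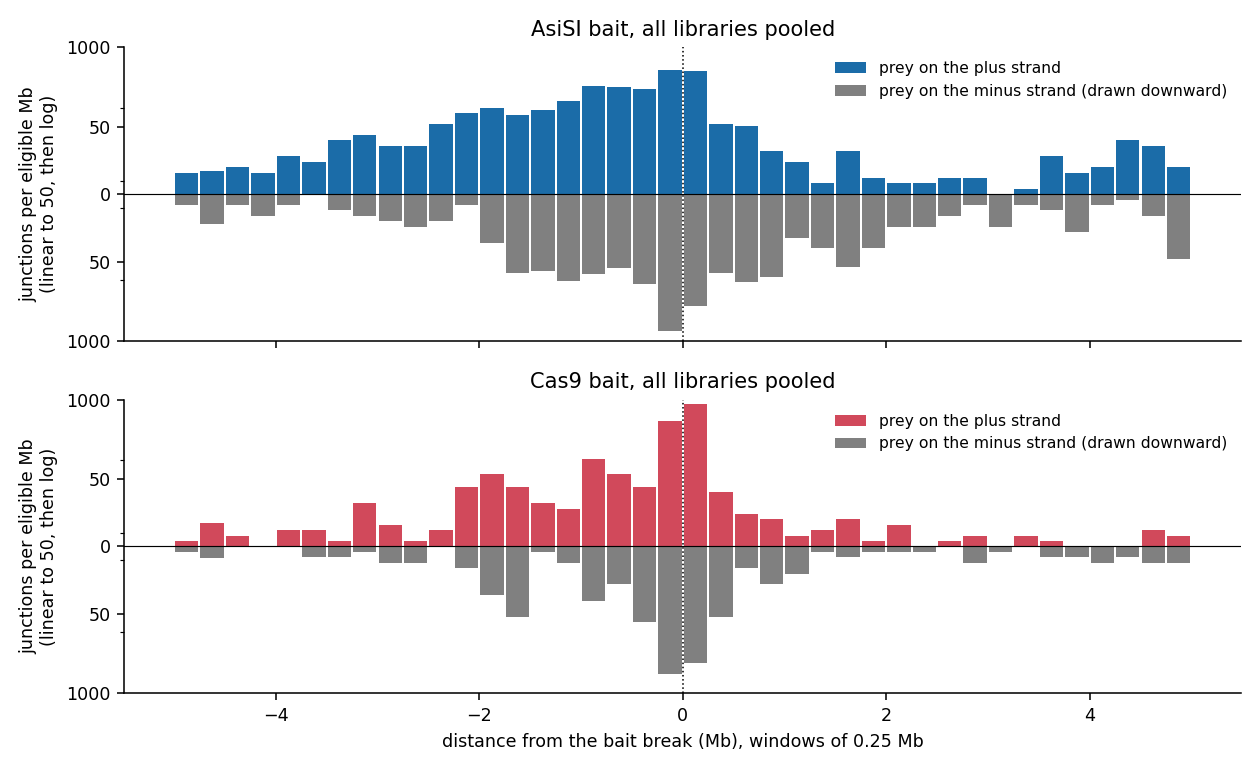
Motif-free junctions per eligible Mb in windows of 0.25 Mb against distance from the bait break (Mb, negative to the left), with prey on the plus strand drawn upward and prey on the minus strand downward, on an axis that is linear to 50 and logarithmic beyond. Plus-strand prey extend over the left flank for both baits, and right of the bait both strands thin out sooner.

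The left excess was seen in density too. At 0.1 to 1 Mb the AsiSI libraries with DMSO held 164 junctions per Mb left (interval 139 to 193) and 71.1 right (interval 54.8 to 90.8), and at 1 to 5 Mb 44.2 and 24. The Cas9 libraries with DMSO held 57.8 and 38.9 at 0.1 to 1 Mb, with overlapping intervals, and 12.8 and 6.25 at 1 to 5 Mb. At 5 to 20 Mb the left and right densities were 19.6 and 15.6 for AsiSI and 9.92 and 9.83 for Cas9. Without telomeric prey the Cas9 libraries with DMSO held 9.34 and 7.51, and all 6 Cas9 libraries 26.6 left (interval 22.4 to 31.5) and 15.3 right (interval 13.4 to 17.4). This class held 5.14 Mb of eligible sequence left, where the chromosome ends, and 14.6 Mb right. Its left part thus lay nearer the bait, and density falls with distance, so its 2 sides are not compared at like distances.

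Prey at 0.1 to 5 Mb made up unequal shares of motif-free prey in the Cas9 libraries. The share was 22.5% and 19.9% in replicate 1 with DMSO and CK-666, 9.41% and 5.86% in replicate 2, and 11.9% and 10.3% in replicate 3. Without telomeric prey the shares of replicate 2 were 13.4% (40 of 298) and 11.5% (28 of 243). In AsiSI libraries with DMSO the share ran from 11.5% to 29.5% with a median of 20.7%.

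Genes around the break held prey by position. Rsu1, which runs left from the bait, held 485 (262 AsiSI and 223 Cas9), and the non-coding transcript Gm13270, which starts 0.28 kb to the right, held 403 (134 and 269). Cubn, the gene of the vitamin B12 and protein receptor cubilin, has its 3′ end 5.02 kb to the right and held 131 (51 and 80). The remaining annotated transcripts within 100 kb, Gm37160 and Gm27540, held 5 and 0. Promoters, which here reach 3 kb up- and downstream of a transcript start, held 69.4% of AsiSI and 64.5% of Cas9 prey within 100 kb with DMSO, where the bait's own promoter is counted.

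Several windows of 10 kb on the left flank, beyond 100 kb, were hit in more than 1 AsiSI library. The window from 12430001 to 12440000 held 8 prey of 6 AsiSI libraries, all plus strand, and the window from 12560001 to 12570000 held 6 of 6 libraries, also all plus. Near Pter and C1ql3, from 13000001 to 13010000, 7 prey of 6 libraries fell on both strands, 4 plus and 3 minus. A stretch of Rsu1 itself, from 13080001 to 13090000, held another 7. With the Cas9 bait, prey of several libraries fell in Rsu1 (from 13100001, 7 prey of 5 libraries) and at Vim, the gene of the fibroblast filament protein vimentin (from 13580001, 4 prey of 4 libraries). None of the windows named here held more than 8 prey of its bait, beside 830 prey left of the bait at 0.1 to 5 Mb in all.

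Protein-coding genes of 500 kb or more were counted together, since long genes are known as places of breakage in dividing cells. Beyond 5 Mb and without telomeric repeats they held 7.49% of AsiSI and 6.02% of Cas9 prey, beside 7.59% of eligible sequence. At 0.1 to 5 Mb the class was Malrd1 alone, which lies right of the bait. It held 18 AsiSI (2.02%) and 7 Cas9 prey (1.97%), beside 7.45% of eligible sequence. Prey were sparser on that side and thinned out with distance, so these shares describe a single gene and not long genes together. The 5 with the most prey were Lrp1b (69), Celf2 (57), Frmd4a (48), Etl4 (34) and Malrd1 (25), of 14 such genes. Lrp1b, a giant lipoprotein receptor gene, held 19 Cas9 and 2 AsiSI prey in a window with a telomeric repeat. Frmd4a had the highest density of the 14, at 80.5 per Mb, and Ryr3 the lowest, at 6.83. Over all libraries, their distance classes held 60.9 per Mb (5 to 20 Mb, left) and 22.5 per Mb (beyond 20 Mb). Celf2, Frmd4a, Etl4 and Malrd1 lie nearest the bait of the 14, so these ranks also follow distance.

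Gene starts held somewhat more of the distant prey than their share of sequence. Beyond 5 Mb and without telomeric repeats, promoters held 22.9% ± 5.76 (SD, n = 25) of prey in AsiSI libraries and 22.7% ± 2.06 (SD, n = 6) in Cas9 libraries, beside 17.0% of eligible sequence. Intergenic sequence held 36.4% ± 7.85 and 34.2% ± 6.996, beside 43.6%. Gene bodies held 40.6% ± 8.72 and 43.2% ± 5.40, beside 39.4%. These shares are a description without a test, and mappability was not tested.

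Telomeric repeats held many of the distant Cas9 prey. A prey was called telomeric when the reference held at least 3 repeat units (TTAGGG or CCCTAA) within 75 bp of the junction, a class defined after the leading windows were seen. There were 472 such prey, 400 in the 6 Cas9 libraries and 72 in 13 AsiSI libraries, over 22 windows of 10 kb. The window from 66180001 at Ttc21b, a gene of ciliary transport, held 68 Cas9 and 7 AsiSI prey. The window from 28180001, with Olfm1 the nearest start, held 83 and 13.

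Sequences of both are shown because the strand of the prey followed the strand of the repeat. The lines give 90 bases of the plus strand of mm10 at chr2:66189288-66189377 and chr2:28184489-28184578, with whole repeat units in capitals.
inner tract at Ttc21b: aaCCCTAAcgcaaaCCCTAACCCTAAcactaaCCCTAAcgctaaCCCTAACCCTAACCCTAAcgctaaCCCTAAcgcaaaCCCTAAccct
inner tract near Olfm1: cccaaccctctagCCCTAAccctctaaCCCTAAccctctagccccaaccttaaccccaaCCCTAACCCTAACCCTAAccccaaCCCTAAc

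Where the plus strand reads TTAGGG, 199 of 206 telomeric prey lay on the minus strand, and where it reads CCCTAA, 261 of 266 lay on the plus strand. In 460 of the 472 (97.5%) the bait end was therefore joined so that the read entered the CCCTAA strand, in all 72 of the AsiSI and 388 of the 400 Cas9 prey. Insertions between bait and prey were found in 56.8% of the Cas9 and 27.8% of the AsiSI telomeric prey. Positions in such tracts cannot be placed with certainty, since repeats at other sites and at chromosome ends hold the same units.

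The telomeric prey were unevenly shared among libraries. With the Cas9 bait, replicate 2 held 127 of 425 motif-free prey (29.9%) with DMSO and 235 of 478 (49.2%) with CK-666, and the other 4 libraries held 6 to 18. Among AsiSI libraries the NU7441 replicate 2 held 35 of 58 (60.3%) and the others 0 to 5. These 3 libraries held most of the class. With telomeric prey left out on chromosome 2 alone, the Cas9 density beyond 20 Mb in all 6 libraries was 1.10 times the median of other autosomes in place of 1.42, and the AsiSI density 1.80 times in place of 1.85.

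Outside telomeric repeats the prey rarely returned to the same base. Of all 6448, 350 (5.43%) had a position also found in another library, 38.1% of telomeric and 2.84% of other prey. Only 113 (1.75%) shared both bait end and prey position with a junction in another library. Outside telomeric repeats 3 positions were found in 4 libraries, at 13270122 in Rsu1, at 92110673 in Phf21a and at 173778921 in Vapb. In that order, about 2.5, 8 and 15 nt of the read fitted both bait and prey. Whether shared sequence led to the repeated positions was not tested.

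The bait end was better kept in distant joins than in the nearest ones. In AsiSI libraries with DMSO, 39.4% of prey at 1 to 10 kb had lost 0 to 2 nt of bait before the cut, 71.3% at 0.1 to 5 Mb and 63.5% beyond 5 Mb without telomeric repeats. The median loss was 3, 1 and 1 nt. The Cas9 libraries with DMSO gave 22.0%, 47.2% and 49.2%, with a median loss of 5, 1 and 0 nt. Both baits thus lost most near the break, and at each distance fewer Cas9 than AsiSI joins kept the end. These shares were chosen after seeing the data and were not tested.

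Read bases that fit both bait and prey, counted as overlap or microhomology, were also compared by distance. With DMSO at 0.1 to 5 Mb, 75.6% of AsiSI prey had an overlap of 1 to 5 nt, 16.9% were blunt and 5.58% had an insertion. The Cas9 libraries had 49.1%, 34.4% and 14.1%. AsiSI leaves a short 3′ overhang and Cas9 mostly blunt ends, which is background and was not tested here. Overlaps of 6 nt or more were few at this distance, 1.86% and 2.45%, and beyond 5 Mb without telomeric repeats they were 8.90% and 6.23%.

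Motif-free prey had fewer long overlaps than prey at AsiSI motifs of the same chromosome. Over the 11 AsiSI libraries with DMSO, 11.7% ± 10.2 (SD, n = 11) of motif-free prey had an overlap of 6 nt or more, from 2.84% to 36.2%. Prey under 500 bp from a motif other than the bait had 22.99% ± 8.08 (SD, n = 11), from 9.61% to 37.2%. The share was lower in 10 of 11 libraries, by a mean of 11.3 percentage points (motif-free minus motif prey, -11.3), with p = 0.00195 by an exact 2-sided sign-flip test. Motif prey carry the same motif sequence as the bait, so joins at both cuts can overlap by sequence alone. The direction was thus favoured in advance, and the test cannot show a difference in how ends were joined. When each position was counted once per library the difference was -6.04 with an exact p = 0.0654.

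The baits were compared in 5 measures over 11 AsiSI and 3 Cas9 libraries with DMSO, by an exact 2-sided permutation test over 364 splits whose smallest p is 0.00549. Prey within 100 kb made up 10.2% ± 5.38 (SD, n = 11) of motif-free prey with the AsiSI bait, with a lowest value of 2.56%, a median of 11.5% and a highest of 18.8%. The 3 Cas9 libraries had 9.83%, 24.5% and 21.6%, a mean of 18.6% ± 7.77 (SD, n = 3). Replicate 1 of Cas9 lay inside the AsiSI range and replicates 2 and 3 above it, and the difference of -8.42 percentage points (AsiSI minus Cas9) gave p = 0.0604 in the exact permutation test, 0.247 after Benjamini-Hochberg adjustment over 5. Leaving out 1 library gave differences from -12.8, without Cas9 replicate 1 (exact permutation p = 0.0256, adjusted 0.0641), to -5.51, without Cas9 replicate 2. Without telomeric prey the difference was -12.0 with an exact permutation p = 0.0495 (adjusted 0.179). Prey at 1 to 10 kb alone made up 8.96% ± 5.04 and 15.01% ± 6.50, with an exact permutation p = 0.0989 (adjusted 0.247). That difference, -6.05, was -8.84 without telomeric prey, -9.80 without Cas9 replicate 1 and -4.03 without Cas9 replicate 2.

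**Figure D4:**
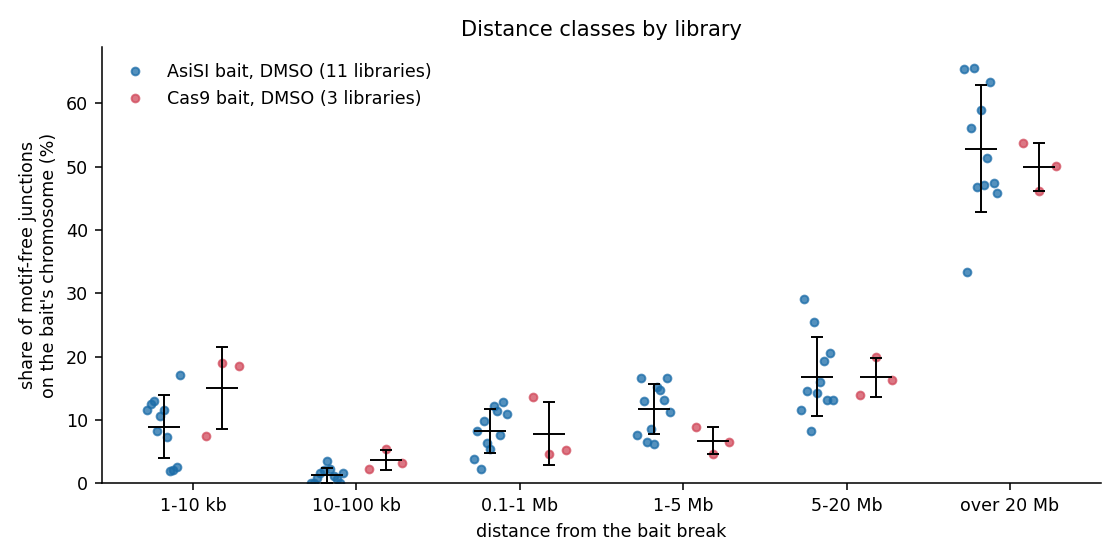
Share of motif-free prey (%) in each of 6 distance classes, 1 point per library with DMSO, 11 with the AsiSI bait and 3 with the Cas9 bait, with the mean and SD as bars. At 1 to 10 kb the AsiSI libraries lie between 1.99% and 17.2% and the Cas9 libraries at 7.51%, 19.1% and 18.5%, and beyond 20 Mb both sets have means near 50%.

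The other 3 measures did not pass the test either. Prey beyond 20 Mb made up 52.9% ± 10.0 (SD, n = 11) with AsiSI and 50.002% ± 3.82 (SD, n = 3) with Cas9, with an exact permutation p = 0.648 (adjusted 0.698). The difference of 2.86 percentage points was 6.71 without telomeric prey (exact permutation p = 0.346). The deletion form, right plus, made up 35.7% ± 6.62 and 41.9% ± 3.20 at all distances, with an exact permutation p = 0.192 (adjusted 0.321). Its difference was -6.23 percentage points, and without the CK-666 DMSO replicate 1, the AsiSI library with the highest share, it was -8.05 with an exact permutation p = 0.00699 (adjusted 0.0350). Per 1000 motif-free junctions of the whole genome, chromosome 2 held 132 ± 76.4 motif-free prey with AsiSI, from 65.0 to 308, and 146 ± 16.02 with Cas9 (exact permutation p = 0.698).

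The cells, the time of collection and the way the nuclease was delivered changed together with the bait and cannot be told apart from it. Only run 4 held both baits, with 1 AsiSI DMSO library, the wiskostatin control replicate 2. Within that run the AsiSI library held 162 more motif-free prey per 1000 motif-free junctions than the mean of the Cas9 libraries, opposite in sign to the pooled difference of -13.6, and its share within 100 kb was 15.5 percentage points lower (difference -15.5). With 1 library against 3 this cannot reach a threshold.

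Runs also differed among AsiSI libraries. Per 1000 motif-free junctions of the whole genome, all AsiSI libraries of run 4 together held 304 motif-free prey on chromosome 2, run 3 held 207, run 5 held 188, and runs 1, 2 and 6 held 93.2, 85.7 and 79.3. Prey within 100 kb ranged from 2.70% in run 6 to 12.5% in run 3. The share left of the bait at 0.1 to 5 Mb stayed between 63.5% and 75% in every run. Treated and control libraries of the same number shared a run, so treatments were compared within pairs.

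CK-666 was compared with DMSO in 6 pairs with the AsiSI bait. Motif-free prey per 1000 junctions, counted over junctions more than 1 kb from the bait, were 27.9, 8.93, 28.9, 27.5, 27.3 and 21.6 with CK-666. In the paired DMSO libraries they were 22.9, 12.8, 22.2, 13.6, 26.9 and 20.6. The treated value was higher in 5 of 6 pairs, and the exception, pair 2, rests on 3 prey of 336 junctions. The mean log2 ratio was 0.24 ± 0.45 (SD, n = 6), with p = 0.219 in an exact 2-sided sign-flip test (adjusted over 3 measures 0.328). Without pair 4 it was 0.085 (exact p = 0.4375) and without pair 2 it was 0.35.

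The deletion form made up a larger share with CK-666 in 5 of the 6 AsiSI pairs. Pair by pair, the treated libraries gave 53.3%, 33.3%, 35.6%, 41.5%, 40.7% and 36.7%. The DMSO libraries gave 53.8%, 29.2%, 33.8%, 32.8%, 31.9% and 32.1%. The mean log2 ratio was 0.23 ± 0.19 (SD, n = 6), with an exact sign-flip p = 0.0625 (adjusted 0.188), where 6 pairs cannot go below 0.03125. The share within 100 kb had no common direction, with 3 pairs higher and 3 lower and a mean change of -0.18 ± 1.19 on the log2 scale (SD, n = 6, exact p = 0.75). In pair 2 that ratio compares 1 of 3 prey with 3 of 24.

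With the Cas9 bait, CK-666 libraries held 131, 115 and 148 motif-free prey per 1000 junctions and their DMSO pairs 135, 131 and 155. All 3 treated values were lower, by a mean log2 ratio of -0.10 ± 0.08 (SD, n = 3), and the exact p of 0.25 is the smallest that 3 pairs allow. Without telomeric prey, an alternative chosen after seeing the data, the ratio was -0.26, and with all deposited junctions as the denominator it was -0.0123 (exact p = 0.75). The shares within 100 kb and in the deletion form had mean log2 ratios of 0.01 ± 0.42 and 0.08 ± 0.18 (SD, n = 3). The change under CK-666 differed between baits by 0.34 on the log2 scale (AsiSI minus Cas9), with p = 0.214 in an exact permutation over 84 splits. Without pair 2 of AsiSI, whose CK-666 library held 3 prey, it was 0.45 with an exact permutation p = 0.0357.

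NU7441 gave 27.0, 44.5 and 14.1 motif-free prey per 1000 junctions beside 31.7, 31.9 and 28.2 in the paired DMSO libraries. Pairs 1 and 3 were lower and pair 2 higher, a mean change of -0.24 ± 0.74 on the log2 scale (SD, n = 3, exact p = 0.75). The treated library of pair 2 is the one with 35 telomeric prey of 58, and without telomeric prey the mean log2 ratio was -0.69 (exact p = 0.25). The share within 100 kb moved by 0.21 ± 0.29 (SD, n = 3) and without telomeric prey by 0.66. The share in the deletion form moved by 0.11 ± 0.30 on the same scale.

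The 2 wiskostatin pairs lay close to their controls in prey per 1000 junctions, and no test was made. The prey themselves numbered 215 and 369 after wiskostatin, beside 620 and 352. Motif-free prey per 1000 junctions were 50.5 and 73.2 after wiskostatin, beside 51.7 and 74.2. The deletion form made up 31.6% and 33.3% with wiskostatin and 33.9% and 34.7% with DMSO. Its mean log2 ratios were -0.03 for prey per 1000 junctions, 0.01 for the share within 100 kb and -0.08 for the deletion form.

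Actin R62D-NLS gave 28.4 and 17.4 motif-free prey per 1000 junctions, beside 32.0 and 30.1 with empty vector. Both pairs were lower, with log2 ratios of -0.17 and -0.79, and the second rests on 28 and 30 prey. The deletion form made up 34.5% and 39.3% beside 41.6% and 43.3%. The share within 100 kb was 8.45% beside 9.73% in pair 1 and 14.3% beside 3.33% in pair 2, where 4 and 1 prey were counted.

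**Figure D5:**
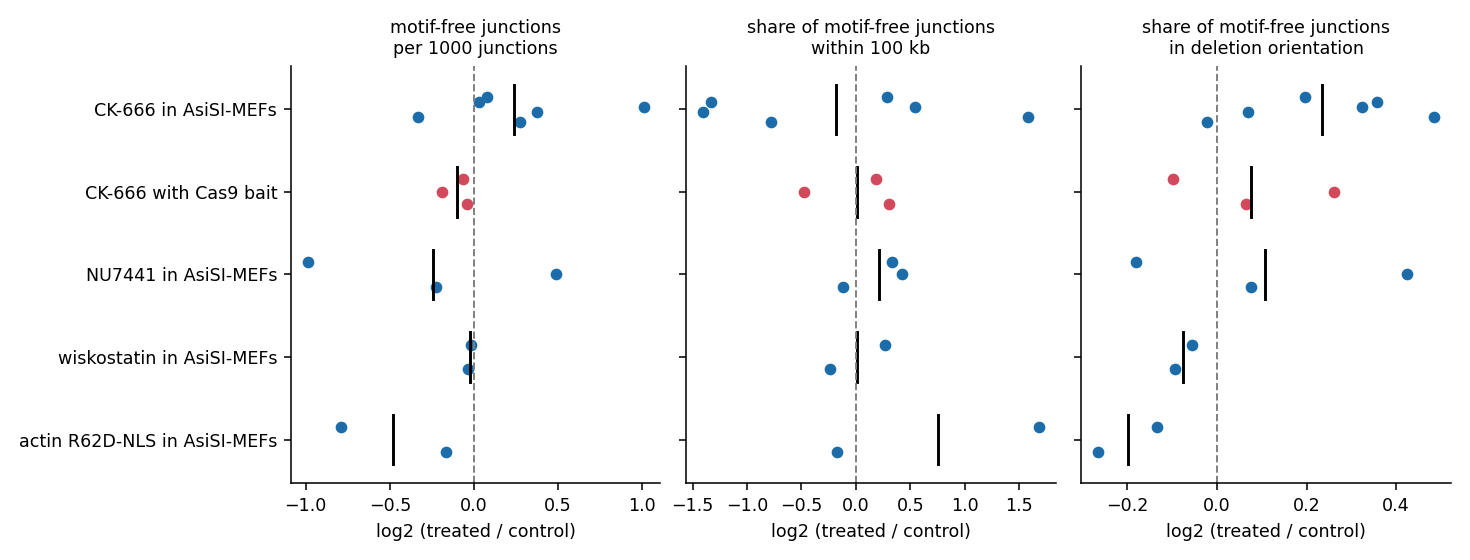
Log2 ratio of treated to control libraries for motif-free junctions per 1000 junctions (left), their share within 100 kb (middle) and their share in the deletion form (right). Each point is 1 pair, blue with the AsiSI and red with the Cas9 bait, and the black line is the mean; for CK-666 in AsiSI-MEFs 5 of 6 points lie above 0 on the left and on the right, while the points in the middle spread from -1.41 to 1.58.

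The excess left of the bait at 0.1 to 5 Mb was present in treated libraries too. In the 4 treated AsiSI libraries with the most prey at this distance the left share was 79.4% of 34 prey (CK-666 replicate 3), 66.1% of 59 (wiskostatin replicate 1), 65.2% of 115 (wiskostatin replicate 2) and 58.1% of 43 (actin R62D-NLS replicate 1). NU7441 replicates 1 and 3 had 70.0% of 10 and 58.3% of 24. The Cas9 libraries with CK-666 had 72.0% of 125, 53.6% of 28 and 75% of 40. Of the 9 libraries with fewer than 10 such prey, 1 had fewer left than right, the CK-666 replicate 6 with 2 of 6.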

How the data were processed

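The authors sonicated genomic DNA, amplified it from the bait with nested primers, sequenced on a MiSeq, aligned to mm10 with BWA and ran the HTGTS pipeline at default settings, whose versions are not given in the sources used here. The deposited tables hold 1 line per junction after removal of duplicates and of mapping quality of 30 or less, with positions, strands and read offsets, neither pooled nor normalized. The bait-only sequences the study normalizes to were not used, so values are shares within a library. Of the 44 samples of the series, 12 are Hi-C and were not used here.

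Junctions were binned by distance from the bait (edges at 10 and 100 kb and 1, 5 and 20 Mb), side and strand. Densities divide by mm10 sequence that meets the rule. Genes are from GENCODE release M21. Named genes overlap 100 kb on either side of the bait or the 10 windows of 10 kb hit in most libraries of each bait, and 5 long genes are named by number of prey. The bait comparison and treatment tests were exact permutation and sign-flip tests, with 0.5 added to counts in ratios and Benjamini-Hochberg adjustment (5 measures between baits, 3 per treatment). The tests were tested on simulated data. Some of the leading windows are not reported here. The prey class, lists and tests were chosen with earlier results of these data known.

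Pairs follow the replicate numbers of the labels and share a sequencing run, as read names show, and the study sets each control to 1 within its replicate. Deviations from group means over 22 classes of distance, side and strand correlated over 0.1 in 13 of 16 pairs (from -0.27 to 0.79). With 2 replicates both pairs must give the same value, 0.38 for wiskostatin and 0.35 for actin R62D-NLS. The count of 13 therefore holds these values more than 1 time each. Without the replicate block, the mean log2 ratio for CK-666 in AsiSI-MEFs was 0.24 in motif-free prey per 1000 junctions, with an exact permutation p = 0.420. Precision is given as 95% Wilson or Poisson intervals for pooled counts and as the SD over libraries. Alternatives were other exclusion distances, sites with 1 mismatch left out, each position once, long overlaps left out, another pseudocount and denominator, and leaving out each replicate. Scripts used scipy 1.17.1, pandas 2.3.3, matplotlib 3.10.9 and numpy 2.4.6 under Python 3.11.15.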

Additional observations from a re-analysis of the deposited data

Results flagged for a closer look

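The CK-666 replicate 2 with the AsiSI bait held 8.93 motif-free prey per 1000 junctions, far below the other 5 CK-666 libraries, which lay between 21.6 and 28.9. It is also the smallest library, with 3 prey of 336 junctions. The DMSO replicate 1 of the same experiment had 53.8% of its 26 motif-free prey in the deletion form, far above the other 5, which lay between 29.2% and 33.8%. Its CK-666 pair had 53.3% of 45. These were 2 of 12 group and measure combinations tested, and chance alone marks about 1 in 20.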

How the results depend on the processing

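Over 22 results and 318 alternative values, 309 kept their side of the threshold or moved by less than the spread, and a called value never changed sign. The deletion share between baits ranged from -8.05 to -4.63 percentage points when 1 replicate was left out, and its adjusted exact permutation p fell to 0.0350 without the CK-666 DMSO replicate 1. The difference of the CK-666 change between baits ranged from 0.18 to 0.45 when 1 replicate was left out, past the threshold only without the CK-666 replicate 2. For wiskostatin, prey per 1000 junctions had a mean log2 ratio of -0.0456 with prey over 50 kb from a motif, -0.0425 with long overlaps left out and 0.14 with motif-free junctions as denominator. Its deletion share had -0.0250 and -0.0405 under the first 2 of these. The overlap difference was -6.04 with each position counted once (exact p = 0.0654) and -10.9 in the 6 DMSO libraries of the CK-666 experiment alone (exact p = 0.0625), and leaving out 1 replicate gave -12.5 to -9.84. The causes were not tested. Prey per 1000 motif-free junctions between baits ranged from -55.1 to 162, and 2 of its 23 alternatives were above 0. Leaving out 1 pair turned the direction of 5 tested but uncalled treatment results: CK-666 with AsiSI within 100 kb (0.06 without pair 3, 0.05 without pair 5), CK-666 with Cas9 within 100 kb (-0.14 without pair 1, -0.08 without pair 3) and in the deletion form (-0.02 without pair 2), and NU7441 per 1000 junctions (0.13 without pair 3) and in the deletion form (-0.05 without pair 2). Without the replicate block no treatment result crossed its threshold, and CK-666 with AsiSI had exact permutation p = 0.158 for the deletion share (log2 ratio 0.23). Depth limits the 9 libraries with fewer than 10 prey at 0.1 to 5 Mb and the pairs whose libraries held 1 to 4 prey within 100 kb. With 3 pairs no p under 0.25 could be reached, and with 2 none was computed.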
